A study of Mus musculus with 3 samples.

Results

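The cells described here were picked out of 3 mouse liver libraries, one barcode at a time, as collagen-producing fibroblasts and hepatic stellate cells. Markers outside the rule, given below, did not bear this out for all of them, since 31 of the 113 also held transcripts of mesothelial cells and 3 of CON held few stellate markers beside hepatocyte transcripts. A barcode was a member when at most 30% of its UMIs (unique molecular identifiers, 1 for each captured RNA molecule) were mitochondrial, when it held at least 4 UMIs of the 9 genes Col1a1, Col1a2, Col3a1, Dcn, Lum, Reln, Lrat, Colec11 and Pdgfrb from at least 2 of them, and when Myh11, Ptprc, Cd3e and Cd79a were at 0. Of 36990 barcodes in all, 113 were members. They numbered 24 of 11245 barcodes in the CON library, which is 0.213% (95% exact Clopper-Pearson interval 0.137 to 0.317). In the HFD library 76 of 12984 barcodes were members, 0.585% (0.461 to 0.732), and in the CCL4 library 13 of 12761, 0.102% (0.0543 to 0.174). The HFD interval lay above those of CON and CCL4, and those of CON and CCL4 overlapped.

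The livers came from wild-type male C57BL/6 mice taken into the experiment when 8 weeks old. CON mice were left untreated. HFD mice received a high-fat diet, 60% of calories as fat, over 4 months, a model of metabolic dysfunction-associated steatohepatitis. CCL4 mice ate normal chow for 3 months and then received carbon tetrachloride, a toxin that injures hepatocytes, as intraperitoneal injections of 0.1 mL of a 10% solution 2 times a week for 4 weeks. In all 3 groups the liver was perfused with collagenase, hepatocytes and non-parenchymal cells were separated and mixed back in equal numbers, and the cells of 2 mice were pooled into 1 library, so that neither the mice nor the conditions have replicates here. No test between conditions was possible, and every interval below covers counting error only. How many such cells were recovered depends on digestion as well as on the tissue, and these cannot be told apart.

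Hepatic stellate cells lie between hepatocytes and the sinusoidal endothelium, store retinoid as retinyl ester formed by the enzyme lecithin retinol acyltransferase (Lrat), and are known as the main source of scar collagen once activated in injury. Portal fibroblasts lie around the portal tract and make collagen there in the healthy liver as well. Mesothelial cells form the surface layer of the liver and share several matrix genes with fibroblasts.

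Members were sequenced to unequal depths. The median member held 4970 UMIs in CON (2430 to 16772), 2740.5 in HFD (1845 to 6940) and 2428 in CCL4 (1722 to 3880). Summed over members, the libraries gave 148537, 233606 and 34786 UMIs, so that 1 UMI weighed 6.73, 4.28 and 28.7 UMIs per 1000000 UMIs (CPM). Values in CCL4 therefore rest on the fewest molecules. Pairs of libraries shared 36, 49 and 52 barcode sequences, none of them a member's. No doublet caller was applied, and levels are given beside those in Ptprc-positive barcodes, a set made up largely of leukocytes. That set is not a pure measure of free RNA. It includes 13, 24 and 2 barcodes that met the UMI part of the rule, which held 883 of its 961 rule-gene UMIs in CON, 591 of 732 in HFD and 123 of 132 in CCL4.

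The rule genes are described first. Their values chose the members and are given without a test. Dcn, which encodes the collagen-binding proteoglycan decorin, was found in 24 of 24 CON members, 75 of 76 HFD members and 13 of 13 CCL4 members. In Ptprc-positive barcodes, whose median depth was 2577.5, 2435 and 2126 UMIs, Dcn was found in 0.648%, 1.57% and 0.115%. Its level in members was 6099 CPM in CON (95% exact Poisson interval 5709 to 6510), 4371 in HFD (4107 to 4647) and 4197 in CCL4 (3544 to 4936). CON was highest, and the intervals of HFD and CCL4 overlapped. The members held 56.6%, 58.6% and 80.7% of all Dcn UMIs of their libraries.

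Col3a1, the chain of type III collagen, was at 1481 CPM in CON, 1464 in HFD and 1121 in CCL4, with overlapping intervals. Col1a1 and Col1a2, the 2 chains of type I collagen, differed more. Col1a1 was at 889 CPM in CON (744 to 1054), 368 in HFD (294 to 455) and 287 in CCL4 (138 to 529). Col1a2 was at 875, 544 and 345 CPM. Both type I chains were thus highest in CON. Lrat was at 613 CPM in CON, 180 in HFD and 201 in CCL4, from 91, 42 and 7 UMIs. Reln, an extracellular glycoprotein of stellate cells in the liver, was at 411, 274 and 546 CPM, and Colec11, a collectin of the lectin complement pathway, at 478, 347 and 747 CPM. Lum, the proteoglycan lumican, stood at 478, 407 and 460 CPM and Pdgfrb, a receptor for platelet-derived growth factor, at 195, 141 and 115 CPM. In Ptprc-positive barcodes Dcn was at 26.6, 45.5 and 2.53 CPM and Col3a1 at 5.76, 8.10 and 8.23 CPM. Without the barcodes that met the UMI part of the rule, an alternative chosen after the values had been seen, Dcn was at 1.36, 10.2 and 0.159 CPM there and Col3a1 at 0.252, 0.470 and 0.317 CPM.

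**Figure D1:**
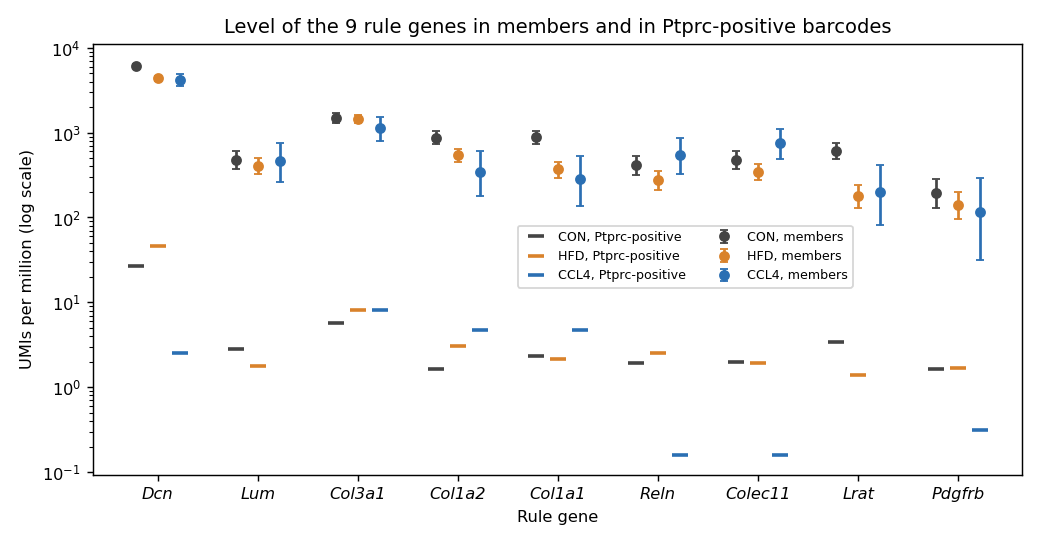
Level of each of the 9 rule genes (vertical axis, CPM, log scale) in members of CON, HFD and CCL4 (points, bars for 95% exact Poisson intervals) and in Ptprc-positive barcodes (dashes). Dcn lies between 4197 and 6099 CPM in the 3 libraries, and Col1a1 and Lrat lie highest in CON.

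The choice of 4 UMIs bore mostly on HFD. The members held a median of 76 rule-gene UMIs in CON (7 to 151), 20 in HFD (4 to 89) and 18 in CCL4 (5 to 46). No CON member, 6 HFD members and 1 CCL4 member held 4 or 5. Just outside, 4 HFD barcodes held 3 rule-gene UMIs from at least 2 genes, and none did in CON or CCL4. A further 4, 10 and 1 barcodes held at least 4 UMIs from 1 gene only. Without the genes required to be at 0, the rule took in 56, 107 and 15 barcodes, of which 20, 3 and 0 held Myh11, the myosin of smooth muscle, and 13, 24 and 2 held Ptprc, the leukocyte antigen CD45.

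Some rule genes were seldom found in the same cell. Col1a1 was found in 54 members and at least 1 of Lrat, Reln and Colec11 in 47, and 9 members held both. Col1a1 and Col1a2 were found together in 45 members, of 54 and 67 that held each. Lrat and Reln were found together in 26, of 32 and 34. Lum was found on both sides, with Col1a1 in 32 members and with 1 of the other 3 genes in 33. The promoters of 2 collagen genes, Col1a2 and Col3a1, and of 2 genes known from stellate cells, Lrat and Reln, are printed here from RefSeq with the coordinates of GRCm38.p6, each from 250 bases before to 50 bases after the transcription start and read 5′ to 3′ on the gene's strand. Of the 9 rule genes, 5 had a promoter in the table used. Capitals mark 3 short motifs searched on both strands. They were the CCAAT box, read as ATTGG on the other strand, the GC box GGGCGG, whose reverse reads CCGCCC, and the TATA box with the letters TATAAA, which reverse to TTTATA.
Col1a2, chr6:4505368-4505667, plus strand: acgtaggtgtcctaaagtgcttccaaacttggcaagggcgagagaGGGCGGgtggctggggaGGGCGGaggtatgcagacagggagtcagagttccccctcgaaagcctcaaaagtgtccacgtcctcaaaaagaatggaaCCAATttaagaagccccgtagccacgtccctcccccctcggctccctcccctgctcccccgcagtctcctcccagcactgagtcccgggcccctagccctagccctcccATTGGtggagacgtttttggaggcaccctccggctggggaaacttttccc
Col3a1, chr1:45311288-45311587, plus strand: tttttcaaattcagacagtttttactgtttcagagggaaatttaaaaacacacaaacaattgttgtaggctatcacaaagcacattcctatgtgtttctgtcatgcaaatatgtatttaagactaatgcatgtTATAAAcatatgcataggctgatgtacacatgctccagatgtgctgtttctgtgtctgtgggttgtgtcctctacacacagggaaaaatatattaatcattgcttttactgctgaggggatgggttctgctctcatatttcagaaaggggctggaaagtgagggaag
Lrat, chr3:82903925-82904224, minus strand: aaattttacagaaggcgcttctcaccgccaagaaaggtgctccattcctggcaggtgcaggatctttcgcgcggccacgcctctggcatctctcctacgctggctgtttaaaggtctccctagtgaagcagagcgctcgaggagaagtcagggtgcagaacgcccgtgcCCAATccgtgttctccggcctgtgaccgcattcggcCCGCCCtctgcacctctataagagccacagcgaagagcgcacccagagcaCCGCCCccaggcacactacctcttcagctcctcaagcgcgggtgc
Reln, chr5:22344656-22344955, minus strand: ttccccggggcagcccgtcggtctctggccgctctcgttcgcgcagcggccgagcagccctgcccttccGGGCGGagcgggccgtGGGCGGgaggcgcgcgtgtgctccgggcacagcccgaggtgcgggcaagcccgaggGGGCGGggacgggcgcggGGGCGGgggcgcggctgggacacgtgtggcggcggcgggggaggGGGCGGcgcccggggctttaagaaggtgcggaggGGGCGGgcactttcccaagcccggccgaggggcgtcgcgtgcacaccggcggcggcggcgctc

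The Col1a2 window held 2 CCAAT and 2 GC box matches, the Col3a1 window 1 TATAAA match, the Lrat window 1 CCAAT and 2 GC box matches, and the Reln window 6 GC box matches. Among 32851 windows of the same length, 37.4% held a CCAAT match, 35.7% a GC box match and 13.6% a TATAAA match. These are matches of letters and say nothing about binding.

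The members were divided by 2 lists of 19 genes each that contain no rule gene, chosen with earlier results of these data known. The stellate list held, among others, Ecm1, Rgs5, Hgf, Vipr1, Pth1r and Gdf2. The portal fibroblast list held, among others, Dpt, Igfbp6, Gas6, Fbln1, Clec3b, Mfap4 and Eln. A member was called stellate-leaning when it held more UMIs of the first list and fibroblast-leaning otherwise. Every member thus fell on one side, even at 2 UMIs against 0, so that the division is no check of the label. By this measure 13 of 24 CON members were stellate-leaning, 54.2% (32.8 to 74.4), 24 of 76 HFD members, 31.6% (21.4 to 43.3), and 4 of 13 CCL4 members, 30.8% (9.09 to 61.4). The intervals overlapped. The fibroblast-leaning side includes 31 members with mesothelial UMIs, 4 in CON, 25 in HFD and 2 in CCL4, described below. These shares are thus not a balance of stellate cells and portal fibroblasts. The lists hardly mixed in single cells. Only 2 CON members, 1 HFD member and no CCL4 member held 10 or more UMIs of both lists. Members with fewer than 10 UMIs of the 2 lists together numbered 3, 23 and 6, and their side rests on few molecules. The 3 of CON were all stellate-leaning, with 4 or 5 stellate-list UMIs each, and held 38290 of the 106689 UMIs of that group. Hepatocyte genes made up 7.81% of their UMIs, compared with 0.912% in the other 10 stellate-leaning members of CON. Of the 23 in HFD 4 were stellate-leaning, and none of the 6 in CCL4. Levels in stellate-leaning members are given for all of them and, for some genes, also without these 7, an alternative chosen after the values had been seen. A gene with no UMI in the 3 CON members stands 1.56 times as high in that group without them. The other 19 of HFD and the 6 of CCL4 were fibroblast-leaning, and 33 and 3 fibroblast-leaning members remain without them.

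**Figure D2:**
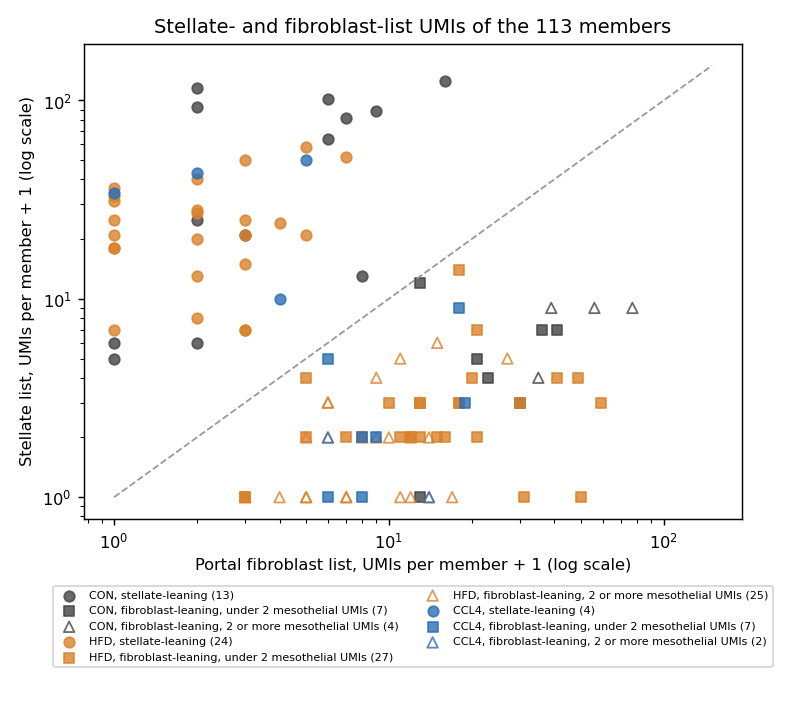
Each point is 1 of the 113 members, placed by its UMIs of the portal fibroblast list (horizontal axis) and of the stellate list (vertical axis), both plus 1 on log scales, with colour for the library and shape for the group. Most members lie along one axis or the other, and only 3 hold 10 or more UMIs of both lists.

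The collagens of the rule were unequal between the groups. Over the 3 libraries Col1a1 was at 1022 CPM in fibroblast-leaning members (224 UMIs, 50 of 72 cells) and at 20.2 CPM in stellate-leaning members (4 UMIs, 4 of 41 cells). Ptprc-positive barcodes held Col1a1 at 2.31, 2.14 and 4.75 CPM. Col3a1 was at 2455 against 319 CPM and Col1a2 at 1118 against 121 CPM. Dcn was found in both groups, at 3778 CPM in fibroblast-leaning and 6295 CPM in stellate-leaning members, and so was Lum, at 429 and 445 CPM. Col3a1 was found in 21 and Col1a2 in 16 of the 41 stellate-leaning members, against 68 and 51 of the 72 fibroblast-leaning ones. Type I and type III collagen transcripts were thus found in both groups, at a lower level in the stellate-leaning one. Reln was at 728 CPM in stellate-leaning members and at 0 in fibroblast-leaning ones, and Lrat at 698 against 9.13 CPM. These differences follow in part from the choice of cells and carry no test.

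Stellate-leaning members held genes known from quiescent stellate cells. Ecm1, an extracellular matrix protein, was at 1517 CPM against 114 in fibroblast-leaning members. Rgs5, a regulator of G-protein signalling in perivascular cells, was at 1502 against 9.13 CPM, and Hgf, the hepatocyte growth factor, at 536 against 4.56 CPM. All 3 belong to the list that defined the group. Cxcl12, a chemokine outside the lists, was at 1871 against 557 CPM. The Cxcl12 level of stellate-leaning members was 1462 CPM in CON, 2479 in HFD and 1529 in CCL4. Without the members with fewer than 10 list UMIs it was 2105 CPM in CON (1775 to 2479) and 2711 in HFD (2332 to 3133). The CCL4 value, from 19 UMIs (921 to 2388), was then lowest, with an interval that overlapped that of CON. Bmp10 and Gdf2, ligands of the endothelial receptor ALK1, were at 0 UMIs in fibroblast-leaning members of every library. Both also belong to the stellate list, so that this follows in part from the choice of the groups. In stellate-leaning members Gdf2 was at 244, 229 and 402 CPM from 26, 18 and 5 UMIs.

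The fibroblast-leaning members were divided by their mesothelial UMIs. Of the 72, 31 held at least 2 UMIs of 7 mesothelial genes (Msln, Upk3b, Upk1b, Lrrn4, Wt1, Gpm6a and Muc16), 4 in CON, 25 in HFD and 2 in CCL4, and 41 did not, 7, 27 and 7. The 41 held at most 1 such UMI each and are called members without mesothelial UMIs here. This division was made after the values had been seen and cuts through a range of counts. Those above the cut held 4 to 38 such UMIs in CON, 2 to 37 in HFD and 5 to 15 in CCL4. Whether they are a separate kind of cell was not tested. Members with mesothelial UMIs held Igfbp5, a binding protein of insulin-like growth factors, at 3407 CPM against 171 in the other fibroblast-leaning members, and Igfbp6 at 1011 CPM. Slpi, a secreted inhibitor of leukocyte proteases, was at 1571 CPM and the membrane protein Gpm6a at 1316 CPM. Pdgfrb was at 0 UMIs in them, Pdgfra at 9.82 CPM, Lum at 147 CPM and Cxcl12 at 68.7 CPM. Of their 15 Lum UMIs, 11 lay in 1 CON member with 4 mesothelial UMIs, and 28 of the 31 held none. Their fibrillar collagens were nonetheless present, with Col3a1 at 2209 CPM and Col1a1 at 658 CPM.

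The 41 fibroblast-leaning members without mesothelial UMIs held the more usual fibroblast profile. Gsn, the actin-severing protein gelsolin, was at 7494 CPM against 1100 CPM in those with mesothelial UMIs, and Dpt, the matrix protein dermatopontin, was at 912 CPM. Pdgfra, a receptor typical of fibroblasts, was at 307 CPM, Pdgfrb at 196 CPM, Lum at 673 CPM and Cxcl12 at 980 CPM. Col1a1 was at 1338 CPM and Col3a1 at 2668 CPM. Mmp3, the metalloprotease stromelysin, was at 435 CPM in them, from 10 of 41 cells, and at 0 UMIs in stellate-leaning members.

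**Figure D3:**
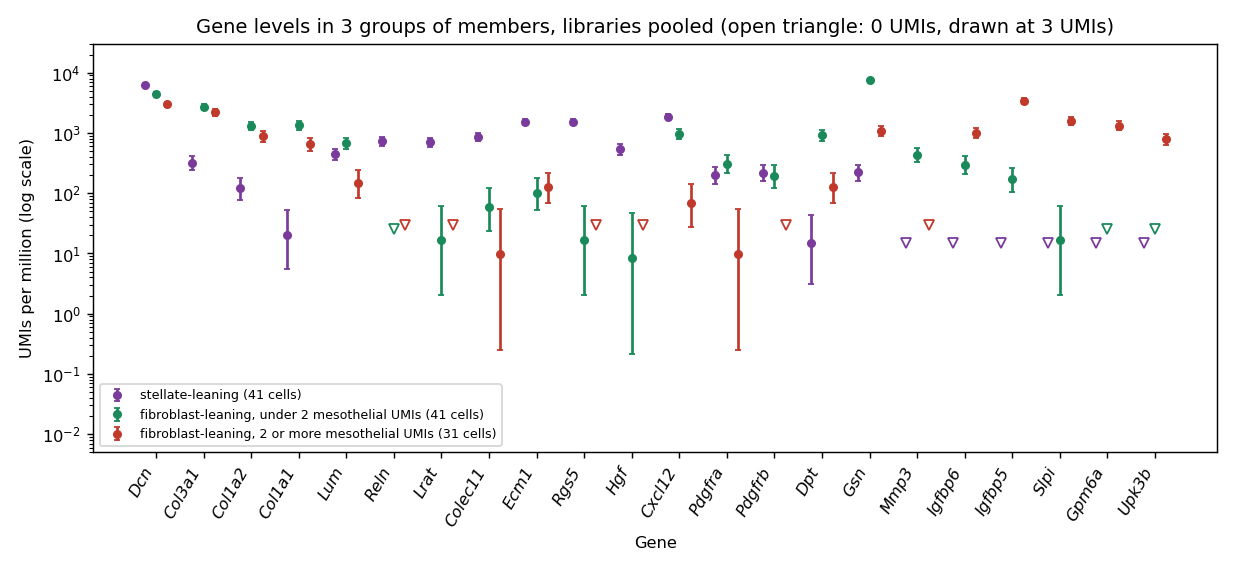
Level of 22 genes (vertical axis, CPM, log scale) in stellate-leaning members and in fibroblast-leaning members with fewer than 2 or with 2 or more mesothelial UMIs, libraries pooled, with 95% exact Poisson intervals and open triangles at the level of 3 UMIs where a group held 0. Reln, Lrat, Hgf and Rgs5 lie high in stellate-leaning members only, whereas Slpi, Gpm6a and Upk3b lie high in those with mesothelial UMIs only.

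Transcripts of neighbouring cell types were found beside those of the members' own. Of the stellate-leaning members, 7 of 13 in CON, 11 of 24 in HFD and 3 of 4 in CCL4 held 5 or more UMIs of 10 endothelial genes, compared with 2 of the 72 fibroblast-leaning members. The 7 CON cells held 31 to 97 endothelial UMIs each, and the other 6 held 0 to 4. The endothelial list summed to 4574 CPM in stellate-leaning members of CON, 3204 in HFD and 3622 in CCL4 (7062 in CON without the members with few list UMIs), and all 10 genes were found in CON and HFD. Its most abundant genes were Ptprb, a phosphatase of endothelial junctions, in CON, Kdr, the receptor VEGFR2, in HFD and Clec4g, a lectin of sinusoidal endothelium, in CCL4, where Stab1 and Tie1 were at 0. Whether such barcodes held 2 cells was not tested.

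The leukocyte list summed to 80.8 CPM in CON members, 492 in HFD and 402 in CCL4, compared with 13767, 9403 and 2803 CPM in Ptprc-positive barcodes, and C1qa was at 0 in all members. Of the 115 leukocyte UMIs in HFD, 41 lay in 1 stellate-leaning member. The erythroid list summed to 12, 177 and 3 UMIs, of which 151 lay in 1 HFD member. Of the 7 genes of the cholangiocyte list 5 were found in members. They included Krt19 with 23 UMIs, which the mesothelial list also holds, Spp1 with 10, Sox9 with 7 and Tspan8 with 6. Epcam and Cldn7 of this list were at 0 throughout, as were Sox10 and Cdh19 of the Schwann cell list. The smooth muscle list summed to 1474, 574 and 690 CPM, mostly of Rgs5, with 174, 105 and 20 UMIs, which the stellate list also holds. Cnn1 and Actg2 were at 0. Hepatocyte transcripts differed between libraries. Their median share of a member's UMIs was 1.36% in CON, 5.07% in HFD and 9.56% in CCL4, and the list summed to 28579, 51527 and 94061 CPM in members and to 32550, 62205 and 112780 CPM in Ptprc-positive barcodes. Of the 4245 hepatocyte-list UMIs of CON members, 2990 (70.4%) lay in the 3 stellate-leaning members with fewer than 10 UMIs of the 2 lists.

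Genes outside the rule were ranked by the smallest of the 3 libraries' ratios of members over all other barcodes (CPM plus 20). Of 2324 genes that could be compared in all 3 libraries, 385 (16.6%) were at least 2-fold higher in members in each. The members were chosen on these cells, so that this ranking is a description. The gene with the largest smallest ratio was Plac9a, a small secreted protein, at 32.7, followed by Ecm1 at 28.4, Igfbp5 at 25.8, Gsn at 25.0 and Sparc, a collagen-binding matricellular protein, at 24.4. Then came Col14a1, a fibril-associated collagen, at 23.5, Bgn, the proteoglycan biglycan, at 21.6, Rgs5 at 20.5 and Sod3, the extracellular superoxide dismutase, at 19.4. The remaining 11 of the first 20 were Mgp, Prelp, Igfbp7, Pam, Abcc9, Gas1, Fbln1, Cygb, Dpt, Lhfp and Timp2, with smallest ratios between 16.3 and 12.3. High rank did not mean that a gene was found in most members. Igfbp5 was found in 4 of 24 CON members, 25 of 76 HFD members and 3 of 13 CCL4 members, and in no stellate-leaning one. Rgs5 was found in 13, 19 and 4 members, all but 1 of them stellate-leaning. Plac9a was found in 21, 46 and 12 members and Sparc in 21, 56 and 10. Cygb, cytoglobin, is known from stellate cells, and Fbln1 and Prelp encode matrix proteins.

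Not every one of these genes set the members apart from their neighbours. Sparc was 2.89-fold, 2.02-fold and 4.07-fold the endothelial level in CON, HFD and CCL4, and Igfbp7 2.19-fold, 1.16-fold and 1.92-fold. Plac9a in members was below the smooth muscle level in CON, at 0.595 times it (0.502 to 0.704). In HFD and CCL4 it was at 0.724 (0.471 to 1.16) and 1.07 (0.657 to 1.74) times. Igfbp5 was at 1.11, 1.01 and 1.11 times the smooth muscle level. Rgs5 was lower in members than in smooth muscle barcodes in CON, at 1171 against 3038 CPM (0.386 times, 0.325 to 0.455). It was higher in HFD, at 449 against 41.9 CPM (10.7 times, 1.89 to 428), and in CCL4, at 575 against 81.5 CPM (7.05 times, 2.36 to 28.4). The smooth muscle values of HFD and CCL4 come from 8 and 17 barcodes. Mgp was at 0.807, 0.613 and 3.76 times the smooth muscle level. Dpt was at 0 UMIs in both endothelial and smooth muscle barcodes. Abcc9, a subunit of the potassium channels of pericytes, was at 74.0 times the smooth muscle level in CON and 34.2 times the endothelial level.

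**Figure D4:**
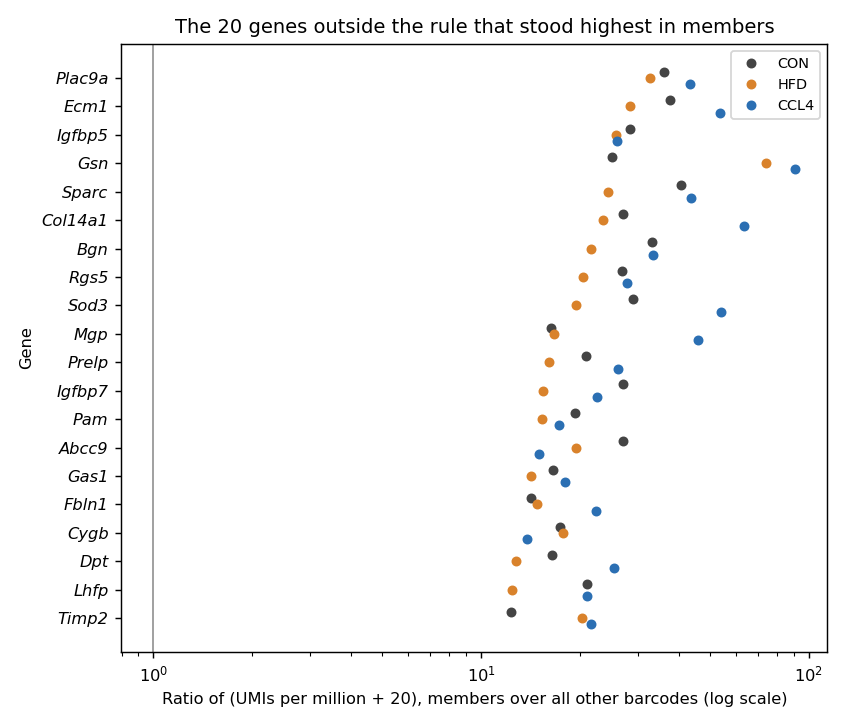
Ratio of CPM plus 20 in members over all other barcodes (horizontal axis, log scale) for the 20 genes outside the rule with the highest smallest ratio, 1 point for each library. All points lie to the right of 1, with a smallest ratio of 32.7 for Plac9a and 12.3 for Timp2.

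Outside both lists, the 15 genes furthest apart on each side were picked after their values had been seen, and those that encode secreted signals are given here. In CCL4 they rest on few molecules, with 6 UMIs of Bmp2, 3 of Rspo3 and 2 of Hhip in stellate-leaning members, and 3 of Sfrp1 and 1 of Ccl7 in fibroblast-leaning ones. Bmp2, which induces hepcidin in hepatocytes, was at 1153 CPM in stellate-leaning members of CON against 0 UMIs in fibroblast-leaning ones, at 687 against 45.2 CPM in HFD and at 483 against 44.7 CPM in CCL4. Endothelial barcodes held Bmp2 at 962, 834 and 499 CPM. Rspo3, an amplifier of Wnt signals around the central vein, was at 337 CPM in stellate-leaning members of CON, 470 in HFD and 241 in CCL4, and in endothelial barcodes at 789, 397 and 241 CPM. Without the members with few list UMIs, stellate-leaning members of CON held Bmp2 at 1754 CPM and Rspo3 at 512 CPM, the latter above the 474 of HFD, and Hhip at 292 CPM. In the stellate-leaning HFD members with fewer than 5 endothelial UMIs, 28 of 37 Rspo3 UMIs remained, 24 of 54 of the ficolin Fcna, 36 of 59 of the complement protease Masp1, 60 of 122 of Tlcd4 and 23 of 47 of Plvap. In the same cells Bmp2 kept 8 of 54, Ptprb kept 1 of 57, and Dnase1l3, Clec4g, Gpr182 and Mrc1 kept 0 UMIs. In CON fewer UMIs remained in such members, 3 of 123 of Bmp2, 4 of 36 of Rspo3, 4 of 51 of Fcna, 8 of 38 of Masp1, 25 of 103 of Tlcd4 and 3 of 59 of Plvap. Hhip, which binds hedgehog ligands, was at 187, 305 and 161 CPM in stellate-leaning members and at 0 in fibroblast-leaning members and endothelial barcodes.

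On the fibroblast side, S100a6, a calcium-binding protein, was at 4803 CPM in CON, 1297 in HFD and 1342 in CCL4 against 18.7, 102 and 0 in stellate-leaning members. Mgp, an inhibitor of calcification, was at 1314, 542 and 1431 CPM. Both were found with and without mesothelial UMIs. Sfrp1, a Wnt antagonist, and Ccl7, a monocyte chemokine, lay mainly in members without mesothelial UMIs, with 26 UMIs of 3 cells and 23 UMIs of 1 cell in fibroblast-leaning members of CON, all of them such cells. Nkain4 lay mainly in members with mesothelial UMIs, with 24 of 24 UMIs in CON and 39 of 42 in HFD. Wt1, a transcription factor of the mesothelium, is one of the 7 genes that define those members.

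The matrix genes beyond the rule were described by list. Among 7 fibrillar collagens, 6 were found in members and Col11a1 was not. They summed to 3460 CPM in CON (3168 to 3773), 2496 in HFD (2297 to 2707) and 1955 in CCL4 (1518 to 2478). CON was highest, and the HFD and CCL4 intervals overlapped. In fibroblast-leaning members the sum was 11207 CPM in CON, 3375 in HFD and 2594 in CCL4, and in stellate-leaning members 422, 763 and 805 CPM. The CCL4 value of the second rests on 10 UMIs. Without the members with few list UMIs, the stellate-leaning sums were 658 (480 to 880), 785 (588 to 1027) and 805 (386 to 1480) CPM, with overlapping intervals. Ptprc-positive barcodes held 12.7, 17.8 and 24.5 CPM.

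In fibroblast-leaning members Col1a1 was at 3106 CPM in CON (2595 to 3689), 542 in HFD (432 to 671) and 447 in CCL4 (214 to 822), and Col3a1 at 4731, 1975 and 1520 CPM. When members with few list UMIs were left out, Col1a1 was at 668 in HFD (518 to 848) and 737 in CCL4 (270 to 1604), the latter from 6 UMIs in the 3 members left. Their order turned, with overlapping intervals, and CON remained highest. In stellate-leaning members Col3a1 was at 206 CPM in CON (129 to 312), 458 in HFD (321 to 634) and 402 in CCL4 (131 to 939), and in CON at 322 (202 to 487) without the members with few list UMIs. Col14a1, outside the rule, was at 534 CPM in stellate-leaning members of CON (405 to 692), 979 in HFD (773 to 1223) and 2415 in CCL4 (1629 to 3447), where the last rests on 30 UMIs of 4 cells. Without the members with few list UMIs it was at 833 (631 to 1080) in CON and 1096 (861 to 1376) in HFD, with overlapping intervals, and CCL4 remained above both. The 15 collagens outside the fibrillar list summed to 1500, 1831 and 3300 CPM in stellate-leaning members and to 3130, 1200 and 1565 CPM in fibroblast-leaning ones. The first became 2193 CPM in CON and 2029 in HFD without the members with few list UMIs. Serpinh1, the collagen chaperone Hsp47, was at 2270 CPM in fibroblast-leaning members of CON, 303 in HFD and 447 in CCL4.

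Other matrix groups were less uniform. In fibroblast-leaning members Sparc was at 2748 CPM in CON against 697 in HFD and 537 in CCL4, and Bgn at 1171 against 394 and 492 CPM. Eln, the elastic fibre protein elastin, was at 239 CPM in CON, 632 in HFD and 268 in CCL4, so that it was highest in HFD, and without the members with few list UMIs at 937 CPM in HFD and 123 in CCL4, the latter from 1 UMI. Among 17 matrix proteases and their inhibitors, Mmp13 and Timp4 were at 0. Timp1, an inhibitor known from activated stellate cells, held 1, 7 and 0 UMIs in all members. Timp3, another inhibitor, was at 909 CPM in CON, 488 in HFD and 259 in CCL4, and in endothelial barcodes at 1714, 770 and 702 CPM. In CON 94 of its 135 UMIs lay in the stellate-leaning members with 5 or more endothelial UMIs.

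The 15 genes of a contractile and activation list, which mark activated stellate cells, summed to 1542, 1224 and 1121 CPM in members and to 798, 597 and 527 CPM in Ptprc-positive barcodes. The most counted were Cald1, an actin-binding protein, with 194 UMIs, Vim with 175 and the tropomyosin Tpm1 with 42. Acta2, smooth muscle actin, held 3 UMIs in CON, 3 in HFD and 0 in CCL4 (where 3 UMIs would be 86.2 CPM). Its level of 20.2 CPM in CON members compares with 35.8 CPM in Ptprc-positive barcodes. Cnn1 and Actg2 were at 0. Des, the filament protein desmin, was at 74.1, 34.2 and 28.7 CPM from 11, 8 and 1 UMIs. Postn, the matricellular protein periostin, was at 128 CPM in CON, 59.9 in HFD and 230 in CCL4 from 19, 14 and 8 UMIs. Vim, vimentin, was at 1219, 620 and 671 CPM in fibroblast-leaning members and at 56.2, 89.0 and 0 CPM in stellate-leaning ones. The fibroblast-leaning level in CCL4 was 368 CPM from 3 UMIs without the members with few list UMIs. Of 14 cell cycle genes, 8 were found in members, with 14, 19 and 4 UMIs in all.

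Among retinoid genes other than Lrat, Rbp4, the plasma carrier that hepatocytes secrete, was at 1878, 3189 and 4571 CPM in members and at 1332, 4163 and 5514 CPM in Ptprc-positive barcodes, and Aldh1a1, a retinal dehydrogenase, at 774, 544 and 489 against 472, 696 and 662 CPM. Of the innate and neurotrophic genes, Tlr4, the lipopolysaccharide receptor, held 1, 0 and 0 UMIs and Bdnf, the brain-derived neurotrophic factor, 0, 2 and 0. As a one-sided 95% limit, counts of 0 allow up to 3 UMIs, which are 20.2 CPM in CON, 12.8 in HFD and 86.2 in CCL4.

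The complement gene C3 and the chemokine gene Ccl2 differed between the groups, unequally in the 3 libraries. C3, the central complement component, was at 4731 CPM in fibroblast-leaning members of CON, 4376 in those of HFD and 1655 in those of CCL4. It was at 1631, 661 and 563 CPM in stellate-leaning members and at 1260, 1012 and 864 CPM in Ptprc-positive barcodes. Without the members with few list UMIs, stellate-leaning members of CON held C3 at 292 CPM (179 to 452) and those of HFD at 563 (398 to 773), so that the order of CON and HFD turned. Ccl2, the main monocyte chemokine, was at 95.6, 387 and 0 CPM in fibroblast-leaning members and at 300, 89.0 and 805 CPM in stellate-leaning ones, so that HFD was highest in the first group and lowest in the second. Stellate-leaning members of CON held Ccl2 at 453 CPM and those of HFD at 104 when members with few list UMIs were left out. The Ccl2 value of CCL4 rests on 10 UMIs of 2 cells. Fos, an immediate early gene induced by dissociation as well as by signals, was at 980, 2872 and 2951 CPM in fibroblast-leaning members and at 1846, 1449 and 724 CPM in stellate-leaning ones. Without the members with few list UMIs the HFD level of Fos in the latter was 0.518 (0.398 to 0.669) of the CON level.

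The libraries were then compared over all members. A gene was compared when it had at least 50 CPM in one of both libraries and at least 20 UMIs in the 2 together, and counted as higher or lower at a 2-fold ratio of CPM plus 20. CON enters 2 of the 3 comparisons. With no replicates these counts describe the libraries and not the conditions.

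In HFD against CON, 236 of 3607 genes (6.54%) were higher and 307 (8.51%) lower. Genes of the fibroblast-leaning cells stood among the higher ones. Alcam, an adhesion molecule of the immunoglobulin family, was at 368 CPM against 40.4 CPM, a ratio of 9.11 (4.02 to 25.5) from 86 and 6 UMIs. Of these, 78 and 2 lay in fibroblast-leaning members, with a ratio of 10.5 (2.82 to 88.5) within them, and 70 of the 78 lay in members with mesothelial UMIs. Eln was 6.42-fold (3.35 to 13.8), and within fibroblast-leaning members 2.65-fold (1.38 to 5.69). Flrt2, an adhesion protein, was 8.69-fold (2.77 to 43.9) and Sema3c, a secreted guidance cue, 8.27-fold (2.63 to 41.8), with 34 of 41 and 28 of 39 HFD UMIs in members with mesothelial UMIs. Within fibroblast-leaning members their ratios were 3.60 (1.15 to 18.2) and 3.51 (1.12 to 17.8). Pi16, known from a fibroblast type shared by many organs, held 25 UMIs against 1, of which 24 lay in fibroblast-leaning members without mesothelial UMIs, as did 82 of the 101 Eln UMIs. Cyp1b1, Cd200, Tnfaip6, Sulf1 and Wnt5a held 19 to 26 UMIs in HFD against 1 or 2 in CON.

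Without the condition that a gene stand above Ptprc-positive barcodes, Slpi, Ccl4 and Ccl5 had the largest ratios. Slpi was at 672 against 20.2 CPM, with 156 of 157 HFD UMIs in members with mesothelial UMIs, and at 680 against 168 CPM in Ptprc-positive barcodes. For Ccl4, a chemokine of leukocytes, 45 of 66 HFD UMIs lay in 1 member. Ccl5 held 42 UMIs against 0, where 3 UMIs would be 20.2 CPM. Both chemokines were far more abundant in Ptprc-positive barcodes, at 802 and 2310 CPM in HFD.

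Genes lower in HFD were found in both groups. Inhbb, the activin subunit beta B, held 3 UMIs against 41, and all 41 lay in stellate-leaning members of CON. Hgf was at 103 against 478 CPM, a ratio of 0.215 (0.129 to 0.346), and within stellate-leaning members at 305 against 665 CPM, 0.458 (0.276 to 0.737), or 0.304 (0.177 to 0.501) without those with few list UMIs. Of the 71 Hgf UMIs in CON, 67 lay in the 7 stellate-leaning members with 5 or more endothelial UMIs, as did 39 of 41 of Inhbb. Among members with 5 or more endothelial UMIs the Hgf ratio was 0.222 (0.106 to 0.423). Among those with fewer the direction turned, with Hgf at 377 CPM in HFD and 85.2 in CON from 13 and 4 UMIs, and with at least 10 list UMIs as well it was at 343 and 348 CPM from 10 and 3. Endothelial barcodes held Hgf at 101 CPM in CON and 16.5 in HFD, and Inhbb at 274 and 53.0 CPM. The part of endothelial transcripts in these differences was not tested. Adamts1, a protease of proteoglycans, was at 145 against 673 CPM and was lower in both groups, with ratios of 0.261 (0.139 to 0.457) and 0.233 (0.119 to 0.452). Among stellate-leaning members with 5 or more endothelial UMIs its ratio was 0.204 (0.0975 to 0.387). Among those with fewer it was 1.09 (0.216 to 5.06) from 4 and 5 UMIs. With at least 10 list UMIs as well it was 0.296 (0.0396 to 2.21) from 3 and 3. The gap junction gene Gja1 was at 0.202 (0.0991 to 0.384). Endothelial barcodes held Adamts1 at 680 CPM in CON and 170.0 in HFD and Gja1 at 354 and 194 CPM. Tmem119 held 5 UMIs against 22, all in fibroblast-leaning members. Fam167b, Serpina3f and Serpina3g had ratios of 0.111, 0.0606 and 0.175.

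Other genes lower in HFD were transcripts of hepatocytes. Mup17 and Mup11, major urinary proteins, had ratios of 0.0226 and 0.0987, and near-identical copies of these genes may share reads. Of the CON UMIs, 112 and 96 lay in 1 member each. Saa2, a serum amyloid of the acute phase, was at 218 against 6645 CPM in members and 270 against 8357 CPM in Ptprc-positive barcodes, and Orm2 had ratios of 0.0645 and 0.132 in the same sets. The acute-phase list summed to 28828 CPM in CON members, 8694 in HFD and 8538 in CCL4, and to 34006, 8516 and 8736 CPM in Ptprc-positive barcodes. Of the 4282 acute-phase UMIs of CON members, 2717 lay in the 3 stellate-leaning ones with few list UMIs, as did 636 of 987 Saa2 UMIs.

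**Figure D5:**
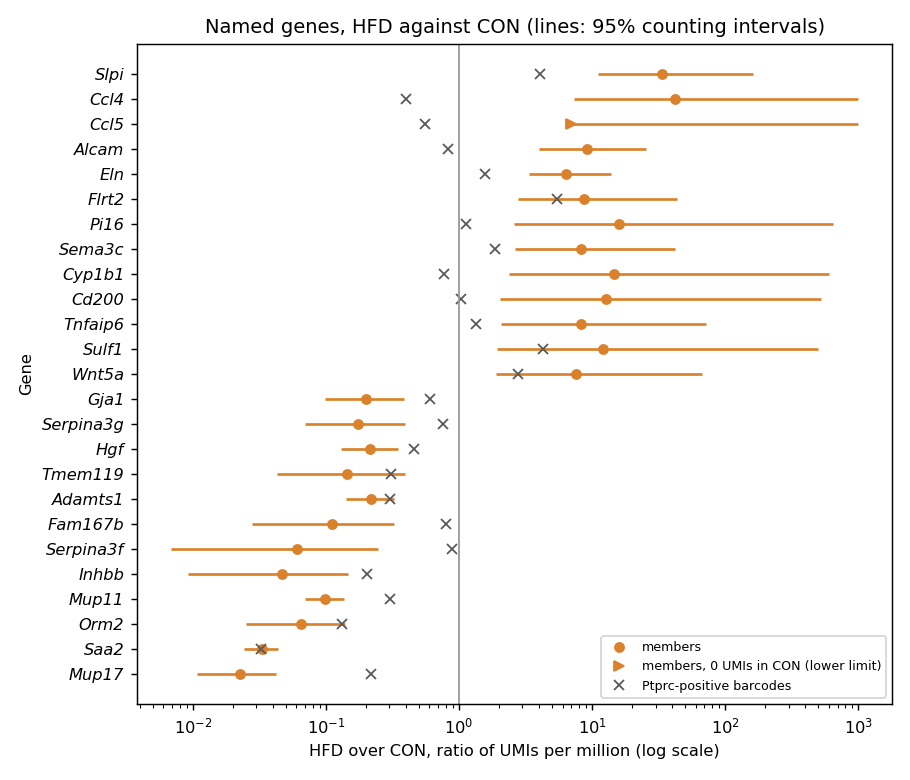
Ratio of CPM, HFD over CON (horizontal axis, log scale), for the named genes in members (orange points with 95% exact conditional intervals, arrowheads for the lower limit where CON held 0 UMIs) and in Ptprc-positive barcodes (grey crosses). Alcam and Eln lie to the right of 1 and Inhbb and Hgf to the left, and Saa2 lies at a like place in both sets.

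The gene lists gave the following counts in HFD against CON, where 6.54% of all genes compared were higher and 8.51% lower. Of 17 stellate-list genes compared, 0 were higher and 7 lower (among them Hgf, Rgs5, Vipr1, Adamtsl2, Bmp10 and Gdf2), with a median log2 ratio of -0.68 against -0.09 over all genes. Stellate-leaning members were 13 of 24 in CON and 24 of 76 in HFD. Within them Rgs5 was at 0.828 (0.643 to 1.06), Gdf2 at 0.939 (0.485 to 1.78) and Ecm1 at 1.49 (1.16 to 1.91) of the CON level. Without those with few list UMIs, these became 0.625 (0.484 to 0.804), 0.689 (0.349 to 1.33) and 1.09 (0.851 to 1.41). Of 13 portal fibroblast genes 3 were higher (Pi16, Eln and Ogn) and 1 lower (Igfbp6). Of 5 fibrillar collagens 0 were higher and 2 lower (Col1a1 and Col5a2), with Col1a1 at 0.414 (0.312 to 0.548) and within fibroblast-leaning members at 0.175 (0.131 to 0.231).

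The next counts stand beside the same shares over all genes, 6.54% higher and 8.51% lower. Of 8 other collagens 2 were lower (Col4a1 and Col6a3), and of 24 elastic fibre and glycoprotein genes 2 were higher (Eln and Efemp1) and 5 lower. Of 9 endothelial genes 6 were lower and none higher. Of 16 niche signals 3 were higher (Rspo1, Wnt5a and Sema3c) and 6 lower (Hgf, Bmp2, Bmp5, Bmp10, Gdf2 and Kitl). In CON the stellate-leaning members with 5 or more endothelial UMIs held 67 of 71 Hgf, 120 of 123 Bmp2, 21 of 30 Bmp5, 14 of 15 Bmp10, 22 of 26 Gdf2 and 18 of 24 Kitl UMIs. Bmp5, Bmp10 and Gdf2 were at 0 UMIs in endothelial barcodes. Of 10 acute-phase genes 6 were lower, and 1, Saa3, was higher, at 449 against 209 CPM with 104 of 105 HFD UMIs in fibroblast-leaning members. Of the 105, 38 lay in 1 member, and without it Saa3 was at 290 CPM in HFD, short of the 2-fold limit. Of 10 hepatocyte genes 3 were higher (Alb, Apoa2 and Ttr), beside the hepatocyte shares given above, and their part in the counts was not tested.

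Among fibroblast-leaning members alone, 391 of 1775 genes (22.0%) were higher and 241 (13.6%) lower in HFD, and among stellate-leaning members alone 105 of 1817 (5.78%) and 175 (9.63%). In fibroblast-leaning members Col1a2 was at 0.261 (0.200 to 0.340), Dcn at 0.457 (0.393 to 0.532), Cxcl12 at 0.229 (0.154 to 0.339) and Serpinh1 at 0.134 (0.0921 to 0.191) of the CON level. In stellate-leaning members Dcn was at 1.19 (1.06 to 1.34), Cxcl12 at 1.70 (1.37 to 2.11) and Lum at 1.75 (1.12 to 2.75) of the CON level. Without those with few list UMIs, Dcn turned to 0.848 (0.751 to 0.956), and Cxcl12 was at 1.29 (1.03 to 1.61) and Lum at 1.20 (0.762 to 1.90). Among stellate-leaning members with 5 or more endothelial UMIs Cxcl12 was at 1.04 (0.778 to 1.39). Among those with fewer it was at 3.42 (2.38 to 4.99), or at 0.944 (0.625 to 1.46) with at least 10 list UMIs as well. Members with mesothelial UMIs made up 25 of 52 fibroblast-leaning cells in HFD and 4 of 11 in CON. In the fibroblast-leaning members without them Col1a1 was at 793 CPM in HFD (608 to 1017) and 3846 in CON (3089 to 4733), so that it was lower in HFD there too. Hepatocyte transcripts made up a median of 5.07% of the UMIs of fibroblast-leaning members in HFD and 1.43% in CON, and their part in these levels was not tested.

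In CCL4 against CON, 162 of 1813 genes (8.94%) were higher and 401 (22.1%) lower, from 13 members in CCL4. The higher genes rested on few molecules. Gsn was at 2530 against 1091 CPM, a ratio of 2.32 (1.77 to 3.03), with all 88 CCL4 UMIs in fibroblast-leaning members, and within them at 1.26 (0.948 to 1.66). Ednrb, an endothelin receptor known from stellate cells, held 11 UMIs against 19, all 11 in stellate-leaning members, where the ratio was 5.25 (2.24 to 11.7), or 3.36 (1.44 to 7.52) without those with few list UMIs. Irf1, an interferon-induced factor, was 3.28-fold (1.29 to 8.11), Id1, a target of BMP signals, 3.05-fold (1.21 to 7.38) and Ly6a 2.52-fold (1.17 to 5.24). Without the member with the most UMIs of the gene, Id1 was 1.35-fold (0.323 to 4.29) and Ednrb 1.45-fold (0.474 to 3.78) the CON level over all members. In the same way Irf1 was 2.46-fold (0.832 to 6.64), Ly6a 2.08-fold (0.879 to 4.57) and Gsn 1.71-fold (1.25 to 2.30). Tomm20, Slc4a4, Tmem106b, Smim11 and Emc3 held 8 to 16 UMIs in CCL4. The hepatocyte genes Hsd17b13, Cyp2f2 and G6pc had larger ratios, with 20, 24 and 19 UMIs in CCL4, and were also higher in Ptprc-positive barcodes of CCL4.

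Among genes lower in CCL4, Mup11, Inhbb, Kcnq1ot1, Rhoc, Mylip, Ptgis, Midn and Syne1 held 0 UMIs against 26 to 277 in CON. The 3 UMIs that 0 allows would be 86.2 CPM there. Of the CON UMIs, 31 of 34 of Mylip, 25 of 35 of Rhoc and 27 of 29 of Midn lay in stellate-leaning members. Within these the ratio intervals reached 1.09, 1.37 and 1.26, and that of Syne1 2.82, whereas those of Mup11 and Inhbb ended at 0.121 and 0.808. Within fibroblast-leaning members those of Kcnq1ot1, Ptgis, Syne1 and Rhoc ended at 0.274, 0.274, 0.614 and 0.835. Mup17 held 1 UMI against 281, and Saa2 was at 172 against 6645 CPM. Of 4 fibrillar collagens 2 were lower (Col1a1 and Col1a2), of 5 other collagens 1 was higher (Col14a1) and 2 lower, and of 19 elastic fibre and glycoprotein genes 1 was higher (Mgp) and 7 lower. Col1a1 was at 0.323 (0.152 to 0.614) and Col14a1 at 2.16 (1.47 to 3.14) of the CON level. Within stellate-leaning members Col14a1 was at 4.52 (2.80 to 7.15) and Ecm1 at 2.45 (1.64 to 3.58), or at 2.90 (1.80 to 4.58) and 1.60 (1.07 to 2.33) without those with few list UMIs. Of 11 stellate-list genes 0 were higher and 3 lower, of 9 endothelial genes 6 were lower, of 10 acute-phase genes 7 were lower and of 10 hepatocyte genes 6 were higher. Over all genes compared, 8.94% were higher and 22.1% lower, and the stellate-list count of lower genes lay near that share. The median log2 ratio over all genes was -0.29.

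In CCL4 against HFD, 121 of 2448 genes (4.94%) were higher and 417 (17.0%) lower. Hgf was at 345 against 103 CPM, a ratio of 3.36 (1.53 to 6.98), and within stellate-leaning members 2.90 (1.28 to 6.15). Of the 12 CCL4 UMIs, 7 lay in 1 member, and without it the ratio was 1.504 (0.448 to 4.02). Postn was 3.84-fold (1.39 to 9.80) from 8 and 14 UMIs, and 2.04-fold (0.489 to 6.497) without the 1 member that held 4 of the 8. Ndufs4, Arcn1, Irf2bp2, Chp1, Tpst2, Smim7, Zbtb44 and Tomm20 held 7 to 16 UMIs in CCL4. Of 12 stellate-list genes 4 were higher (among them Hgf, Vipr1 and Hand2) and 1 lower, and of 13 portal fibroblast genes 1 was higher (Ly6a) and 5 lower (Clec3b, Pi16, Eln, Ogn and Gas6). Of 3 fibrillar collagens none passed the 2-fold limit.

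Saa3, Mylip, Oip5os1, Gfpt2, Prg4, Adgrd1, Nckap1, Zfp652 and Il11ra1 held 0 UMIs in CCL4 against 25 to 105 in HFD, and Alcam 1 UMI against 86. For Nckap1, Zfp652 and Il11ra1 the ratio intervals reached 1.02, 1.02 and 1.07 and thus included 1, whereas that of Saa3 ended at 0.2401. Without the 1 HFD member that held 38 of the 105 Saa3 UMIs, the Saa3 interval ended at 0.376. Gfpt2, an enzyme of hexosamine synthesis, Prg4, the lubricant proteoglycan 4, and Adgrd1 lay in fibroblast-leaning members of HFD, with 30 of 32, 27 of 28 and 27 of 27 UMIs. Within fibroblast-leaning members their ratio intervals reached 0.907, 1.01 and 1.01. Over all members but the one with the most UMIs of the gene, they reached 1.01, 1.21 and 1.14. Of genes that were also abundant in Ptprc-positive barcodes, Apoa4, Hamp2 and G6pc, all of hepatocytes, were higher in CCL4, and Cyp3a11 was lower, at 0 UMIs against 235. For Hbb-bs, 93 of 109 HFD UMIs lay in 1 member. Of 8 complement genes 4 were lower in CCL4 (among them C3, C4b and Cd55), compared with 17.0% of all genes. C3 was at 1265 against 3125 CPM. The median log2 ratio over all genes was -0.14.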

How the data were processed

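The 3 libraries, 1 each for CON, HFD and CCL4, were grouped by their labels. Counts were deposited by the authors as unnormalized UMIs for each gene in each barcode, written by Cell Ranger 7.2.0 on 10x Chromium 3′ v3.1 libraries, with mice pooled before capture. The study's methods name the build mm10 and the submitters' processing notes GRCm39, so no gene position of the files is given. Those notes also list Seurat.

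Members were found by the stated rule, and counts were summed per library and divided by the summed UMIs (CPM). The 1629 to 1827 UMIs of the shallowest barcodes set the depth. CPM carry exact Poisson, shares exact Clopper-Pearson and ratios exact conditional 95% intervals, all for counting error only. The 2-fold limit, the ranking against other barcodes and the flagged ratios in members used CPM plus 20. Other ratios used CPM alone. Endothelial and smooth muscle barcodes held at least 4 UMIs from 2 or more genes of their own, with 0 Ptprc, Cd3e and Cd79a UMIs. The endothelial choice also required 0 UMIs of 8 rule genes and Myh11, and the smooth muscle choice at least 1 Myh11 UMI. The members and the 31 gene lists were chosen with earlier results of these data known.

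Named genes were the rule genes, the 4 most counted of a list, the 20 of the ranking against other barcodes and, per comparison, the 10 highest and 10 lowest past the limit with at least 2 times the Ptprc-positive CPM in the higher library, plus 3 a side without that condition. Mitochondrial and ribosomal protein genes were left out, and Bdnf and Tlr4 were added. Other genes were named after their values were seen. Some genes are not reported here.

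Alternatives changed the rule, the thinning of barcodes, the scaling, the pseudocount, the minimum counts and the members used. Programs were tested on simulated data. Python 3.11.15, numpy 2.4.6, pandas 2.3.3, scipy 1.17.1 and matplotlib 3.10.9 were used. No replicate could be left out, with 1 library per group.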

Additional observations from a re-analysis of the deposited data

Results flagged for a closer look

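Members and Ptprc-positive barcodes differed in opposite directions between the same libraries for 13 named genes, 1 of them in 2 comparisons. The difference between the 2 sets was not itself tested. The ratios were also taken without 1 member, the one with the most UMIs of the gene in the higher library. Without that member the interval of the CPM ratio in members included 1 for Irf1, Id1, Ly6a, Hgf, Postn, Chp1, Tpst2, Zbtb44 and Prg4. It did not for Alcam, Ccl4, Ccl5 and Gsn. For Chp1, Tpst2 and Zbtb44 the member left out held only 2 of 7 UMIs. Their ratio of CPM was 3.62 with it and 2.91, 2.91 and 2.77 without it, so that few UMIs in all widened these intervals. In HFD against CON, on the scale of CPM plus 20, the ratio in members was 6.43 for Alcam, 11.3 for Ccl4 and 9.99 for Ccl5, whereas in Ptprc-positive barcodes the ratio of CPM was 0.820, 0.399 and 0.555.

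In CCL4 against CON the ratio in members was 2.86 for Irf1, 2.69 for Id1, 2.34 for Ly6a and 2.30 for Gsn, with 0.667, 0.523, 0.538 and 0.426 in Ptprc-positive barcodes. In CCL4 against HFD it was 3.13 for Postn, 2.97 for Hgf and 2.92 for each of Chp1, Tpst2 and Zbtb44, and 0.126 for Alcam and 0.143 for Prg4. Ptprc-positive barcodes held Postn at 0 UMIs in CCL4, had ratios of 0.147 for Hgf, 0.626 for Chp1, 0.761 for Tpst2 and 0.818 for Zbtb44, and ratios above 1 for Alcam (1.17) and Prg4 (2.09). Without the Ptprc-positive barcodes that met the UMI part of the rule, Hgf was at 0.172 (0.0535 to 0.430) there, and Postn held 0 UMIs in CCL4 and 1 in HFD, too few for a direction.

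A further 24 HFD barcodes met the part of the rule on collagen, stellate and related UMIs but held Ptprc, and were thus not members. They made up 0.185% of the library (0.118 to 0.275), compared with 13 barcodes or 0.116% in CON (0.0616 to 0.198) and 2 in CCL4. The HFD barcodes held a median of 20.5 rule-gene UMIs, 2 Ptprc UMIs and 10 leukocyte-list UMIs, at a median depth of 3964 UMIs, and 6 of them also held Cd3e.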

How the results depend on the processing

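The number of members stayed within its counting interval with a minimum of 3 or 6 UMIs, with 3 rule genes, with 20% mitochondrial UMIs and after thinning to 1500 UMIs. Requiring 0 UMIs of 8 endothelial, cholangiocyte and mesothelial genes left 12 members in CON, 43 in HFD and 6 in CCL4, and 238 genes at least 2-fold higher than in other barcodes. The stellate-leaning shares stayed within their wide intervals, but with at least 10 UMIs of both lists together they were 47.6% in CON, 37.7% in HFD and 57.1% in CCL4, which turned their order. With these members 347 genes were higher and 405 lower in HFD against CON. For HFD against CON, 543 genes passed the limit, compared with 342 with those 8 genes at 0 (196 higher and 146 lower, a turned split), 296 with a pseudocount of 50 CPM, 272 with minima of 100 CPM and 40 UMIs, 865 with no minimum CPM and 10 UMIs, 280 in stellate-leaning members alone and 339 in fibroblast-leaning members without mesothelial UMIs (218 higher and 121 lower, also turned). For CCL4 against CON the count of 563 became 213 with the 8 genes at 0, 239 with the higher and 1192 with the lower minima, 238 in fibroblast-leaning members and 139 in those without mesothelial UMIs. For CCL4 against HFD the count of 538 became 320 with 50 CPM, 183 with the higher and 1173 with the lower minima, 178 in stellate-leaning members and 181 in fibroblast-leaning ones without mesothelial UMIs. Fewer molecules and genes enter the smaller sets. The sets of members with 10 list UMIs, stellate-leaning alone and without mesothelial UMIs were chosen after seeing the data. No paired analysis was possible because each group has 1 library. The 34786 UMIs of CCL4 limit what can be seen there: 3 UMIs are 86.2 CPM.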
